A study of Mus musculus with 8 samples.

Results

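The 10 genes described here encode the molecules that show peptides to T cells, and they were taken by name from the 17143 genes measured. The 6 class I genes are H2-K1, H2-D1, H2-Q6, H2-Q7, B2m and Tap1, and the 4 class II genes are H2-Aa, H2-Ab1, H2-Eb1 and Cd74. All 10 were present in the count table. Their levels were measured by droplet single-cell sequencing, in which each captured transcript carries a unique molecular identifier (UMI), in dissociated hippocampus of 8 mice aged 5 months. In the Pb group (2 males and 2 females), the a/a dams drank water with 32 ppm Pb-acetate (lead) from 2 weeks before mating until the end of lactation. In the Ctl group (2 males and 2 females), the a/a dams were in the control exposure group, and the treatment label of these mice is control diet. All 8 offspring were wildtype (a/a) and had water free of Pb after weaning. Per the labels, each litter gave 1 male and 1 female, but the labels do not say which mice were littermates. The mice were perfused with saline, which clears most blood from the vessels, and the cells were frozen and thawed before capture.

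Class I molecules are made by nearly all nucleated cells. A heavy chain (H2-K1 and H2-D1 are the classical ones, H2-Q6 and H2-Q7 belong to the Qa-2 family) pairs with beta-2 microglobulin, the product of B2m, and is loaded with a peptide that the transporter subunit encoded by Tap1 helps to bring into the endoplasmic reticulum. Class II molecules are restricted mainly to professional antigen-presenting cells. H2-Aa and H2-Ab1 encode both chains of I-A, H2-Eb1 encodes the beta chain of I-E, and Cd74 encodes the invariant chain that guides class II molecules to the endosome. In the healthy brain, class II is known mainly from macrophages at the borders and along vessels, while microglia, the resident macrophages of the tissue, carry little of it.

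Of 5258 deposited cells 5175 were kept, 3555 from Pb and 1620 from Ctl mice. Kept UMIs per mouse ranged from 1749079 to 8508064 and the median per cell from 5507 to 6469. There were 32 cell barcodes that occurred in more than 1 library. They cover 91 cells (1.73%), 2 of these barcodes occurred in all 8 libraries, and 34 of the cells were Endothelial-like and 18 Smooth muscle-like. Every fit was repeated without these cells. Counts of any 2 libraries (28 pairs) differed well beyond sampling noise, with a chi-square of 4.54 to 56.3 for each degree of freedom, and none was a copy of another. The male label was borne out in 4 of 4 mice and the female label in 4 of 4: Ddx3y, a Y-linked gene, was at 89.7 to 97.4 CPM (a gene's UMIs, scaled to the summed UMIs of the same cells) in males and 0 in females, and Xist, which marks the inactive X chromosome, at 0 to 2.32 CPM in males and 840 to 993 CPM in females. Clustering, with the 10 genes and their pathway left out of the genes used, gave 21 clusters in 14 classes, 12 named from markers and called "-like", and clusters 9 and 18, which the markers did not name. All listed markers of each named class were found in at least 10% of its cells. No cluster was led by the marker list for mature neurons, and the only neuronal class was Cajal-Retzius-like with 110 cells, so the labelled tissue was seen here through its glia, vessels and immune cells. Hemoglobin genes led cluster 9, which was otherwise nearest to microglia, and cluster 18 held T, NK and B cell markers.

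Of the 10 genes, 8 lie in the H2 complex on mouse chromosome 17 (positions from GENCODE vM21, GRCm38). H2-K1 is at chr17:33996017-34000347 on the minus strand, Tap1 at chr17:34187553-34197225, H2-Ab1 at chr17:34257689-34269419, H2-Aa at chr17:34282744-34287823 on the minus strand and H2-Eb1 at chr17:34305867-34316674. H2-D1 follows at chr17:35262730-35267499, H2-Q6 at chr17:35424850-35430055 and H2-Q7 at chr17:35439155-35443773. B2m is at chr2:122147686-122153083 and Cd74 lies on another chromosome. The class I heavy chains resemble each other: over the 6 pairs of their transcripts, identity of aligned bases ran from 77.393% (H2-D1 and H2-Q6) to 90.473% (H2-K1 and H2-D1), with 86.824% for H2-Q6 and H2-Q7. Cut into stretches of 90 bases, the last 500 bases of 9 of the 10 transcripts had no exact copy in another gene. For H2-Q6, 10.949% of these stretches were shared, with H2-Q4 among others, so its counts are the least certain of the 10.

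Promoters of class I and class II genes are known to share short elements, and 5 windows are printed because the levels of these class I genes are compared side by side below, with H2-Aa as the class II example. The sequences come from the RefSeq promoter table (GRCm38.p6), in which 8 of the 10 genes were matched and searched over the 250 bases before the start. H2-Ab1 is not among them and Cd74 was not searched. Each is printed 5′ to 3′ on the strand of its gene, with the searched motifs in capitals. The windows are chr17:34000354-34000463 (minus strand) for H2-K1, chr17:35424672-35424804 (plus strand) for H2-Q6, chr17:35439017-35439148 (plus strand) for H2-Q7, chr2:122147545-122147643 (plus strand) for B2m and chr17:34287862-34288041 (minus strand) for H2-Aa.
H2-K1: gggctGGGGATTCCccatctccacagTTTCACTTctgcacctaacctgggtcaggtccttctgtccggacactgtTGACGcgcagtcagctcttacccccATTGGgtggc
H2-Q6: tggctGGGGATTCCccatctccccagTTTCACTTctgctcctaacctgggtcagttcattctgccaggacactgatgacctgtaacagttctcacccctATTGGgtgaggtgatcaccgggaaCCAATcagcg
H2-Q7: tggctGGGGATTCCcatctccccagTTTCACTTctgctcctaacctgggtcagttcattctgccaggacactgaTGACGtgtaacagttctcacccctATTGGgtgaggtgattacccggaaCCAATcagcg
B2m: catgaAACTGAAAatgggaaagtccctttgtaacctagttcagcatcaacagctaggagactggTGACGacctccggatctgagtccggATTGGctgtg
H2-Aa: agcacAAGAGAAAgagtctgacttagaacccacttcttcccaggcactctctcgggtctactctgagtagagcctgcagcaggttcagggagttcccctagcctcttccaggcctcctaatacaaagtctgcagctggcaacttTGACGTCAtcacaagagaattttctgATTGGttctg
The first capitals in the 3 heavy chain windows are GGGGATTCC, a kappaB-like motif, found on either strand in 0.218% of 27025 such promoter stretches. Next comes TTTCACTT, which reads on the other strand as a match to AANNGAAA, the core bound by interferon regulatory factors (21.565% of promoters). TGACG, the core of the X2 box (17.861% of promoters), begins 41 bases before the start of H2-K1, 64 before H2-Q7 and 78 before B2m, and the H2-Q6 window has no match. ATTGG, the Y box bound by NF-Y, follows in all 5 windows (34.464% of promoters), and CCAAT is its match on the other strand. In H2-Aa, TGACG and its reverse match overlap. Motif matches are a description of these letters only.

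Class I RNA was spread over all classes. Endothelial-like cells held 34.5% of all H2-K1 UMIs (25.4% of cells), Microglia-like cells 31.6% and Oligodendrocyte-like cells 6.47% (24.7% of cells). H2-K1 averaged 732 ± 158 CPM in Microglia-like cells (SD, n = 8 mice), against 599 ± 127 in Endothelial-like (n = 8), 575 ± 147 in Smooth muscle-like (n = 7), 415 ± 123 in Pericyte-like (n = 8) and 361 ± 98.9 in cluster 9 (n = 7). It averaged 238 ± 193 CPM in Oligodendrocyte precursor-like (n = 5), 181 ± 51.1 in Astrocyte-like (n = 6), 154 ± 20.3 in Choroid plexus-like (n = 3), 125 ± 48.5 in Cajal-Retzius-like (n = 6) and 115 ± 40.0 in Oligodendrocyte-like cells (n = 8). Microglia-like cells stood above Endothelial-like cells in 8 of 8 mice, and Smooth muscle-like above Pericyte-like cells in 7 of 7. From Pericyte-like cells down, each pair of neighbours in this order changed places in at least 1 mouse. H2-D1 averaged 1467 ± 405 CPM in Microglia-like and 1350 ± 215 CPM in Endothelial-like cells (n = 8 each), and the first was above the second in only 4 of 8 mice. At the low end, H2-D1 averaged 267 ± 106 CPM in Astrocyte-like (n = 6), 241 ± 41.7 in Cajal-Retzius-like (n = 6) and 226 ± 103 in Choroid plexus-like cells (n = 3). Oligodendrocyte-like cells also held marker RNA of other cell types. Their endothelial markers summed to 1197 to 1628 CPM in Pb and 819 to 1901 CPM in Ctl mice. Microglial markers there summed to 644 to 885 CPM in Pb and 517 to 959 CPM in Ctl mice. The part of other cells' RNA in low class I levels, or in their differences by Pb or sex, was not tested.

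B2m, the shared light chain, averaged 3539 ± 663 CPM in cluster 9 (n = 7) and 3326 ± 569 CPM in Microglia-like cells (n = 8), which cannot be ordered, since cluster 9 was above in 4 of 7 mice. Endothelial-like cells followed with 2141 ± 419 CPM (n = 8), below Microglia-like cells in 8 of 8 mice, and among the classes averaged over mice Cajal-Retzius-like cells were lowest with 387 ± 134 CPM (n = 6). Tap1 averaged 39.4 ± 11.5 CPM in Microglia-like and 35.8 ± 7.13 CPM in Endothelial-like cells (n = 8 each), and Endothelial-like cells were above Pericyte-like cells (20.7 ± 11.2 CPM, n = 8) in 8 of 8 mice. The Qa-2 genes were lower than H2-K1, H2-D1 and B2m and more restricted than these, though above Tap1 in Microglia-like cells. H2-Q6 averaged 54.2 ± 33.0 CPM and H2-Q7 87.2 ± 39.5 CPM in Microglia-like cells (n = 8 each), while in Oligodendrocyte-like cells H2-Q6 averaged 4.05 ± 3.34 CPM and H2-Q7 8.52 ± 5.49 CPM (n = 8 each). The small classes were summed over mice, with exact Poisson intervals that cover counting error only. In cluster 18 (43 cells) H2-K1 was at 1989 CPM (1800 to 2200), H2-D1 at 3053 (2810 to 3310) and H2-Q7 at 651 (543 to 774). In Perivascular macrophage-like cells (56 cells) H2-K1 was at 980 CPM (877 to 1090), H2-D1 at 2651 (2480 to 2830) and B2m at 3643 (3440 to 3850). The 20 Ependymal-like cells held 0 UMIs of H2-Q6, Tap1, H2-Aa and H2-Eb1 among 99885, for which the Poisson interval reaches 36.9 CPM.

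**Figure D1:**
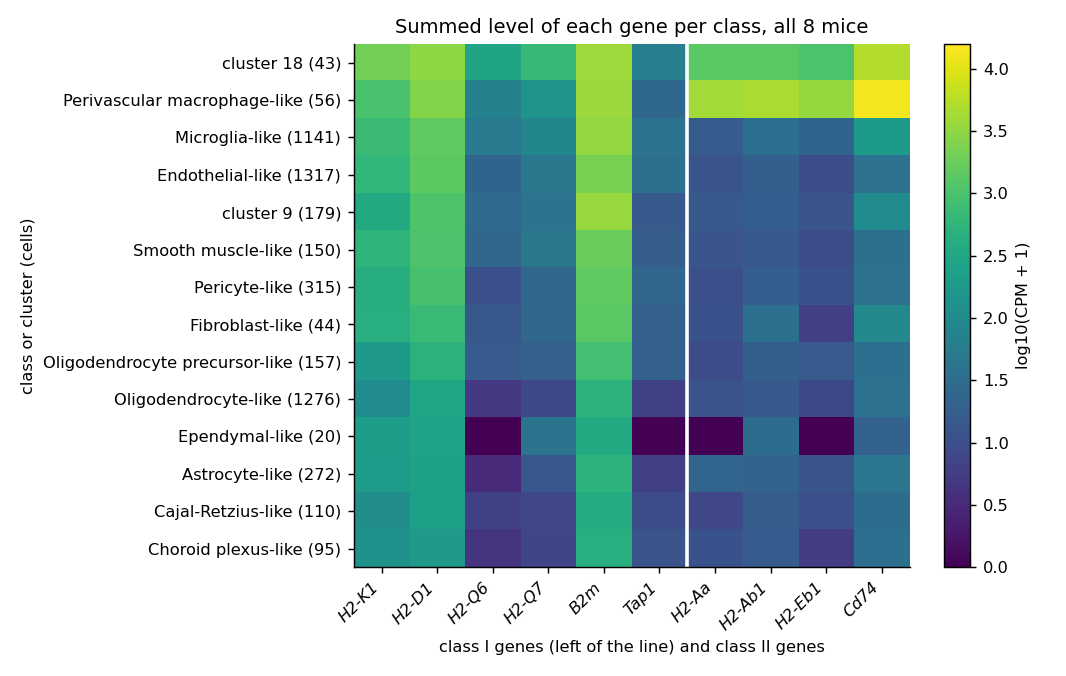
Level of each gene in each class or cluster, as log10(CPM + 1) of the UMIs summed over all 8 mice, with class I genes left of the white line and class II genes right of it; the number of cells stands in brackets. Rows are ordered by the H2-D1 level, so the fade of H2-D1 down the rows follows from the ordering. B2m departs from that order, with 3501 CPM in cluster 9 and 2186 CPM in Endothelial-like cells, a row higher up. Class II levels are high in 2 rows, cluster 18 (Cd74 at 5118 CPM) and Perivascular macrophage-like cells (13600 CPM).

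Microglia-like cells were not uniform. They formed clusters 4, 5 and 8 with 524, 435 and 182 cells, made without the use of the 10 genes. Summed over mice, H2-K1 was at 822 CPM (Poisson interval 793 to 852) in cluster 4. It was at 686 CPM (655 to 719) in cluster 5, and cluster 8 had 407 CPM (364 to 453). H2-D1 followed the same order with 1787, 1210 and 879 CPM, H2-Q6 with 76.3, 31.7 and 13.8 CPM, and Cd74 with 260, 147 and 48.8 CPM. Mouse by mouse, H2-D1 was higher in cluster 4 than in cluster 5 in 8 of 8 mice, but H2-K1 in only 5 of 8. In males H2-K1 averaged 678 ± 79.8 CPM in cluster 4 and 655 ± 113 CPM in cluster 5 (n = 4 each), and cluster 4 made up 24.6 to 69.5% of the microglia of a mouse. B2m did not follow the order, with 3734 CPM in cluster 4, 2712 in cluster 5 and 3070 in cluster 8. The median cell held 6919 UMIs in cluster 4, 5427 in cluster 5 and 4108 in cluster 8, so depth moved with the first order, and its part in the result was not tested. In Endothelial-like clusters 0 and 3, H2-K1 was at 608 CPM (586 to 630) and 602 CPM (579 to 626), with overlapping intervals, and H2-D1 at 1316 CPM (1280 to 1350) and 1452 CPM (1420 to 1490), with intervals apart. Among Pericyte-like cells, cluster 12 was at 191 CPM for H2-K1 and 592 CPM for H2-D1, against 456 and 1013 CPM in cluster 7, with median depths of 3832 and 10370 UMIs. After the pericyte list, the marker list scoring highest was endothelial in cluster 7 and smooth muscle in cluster 12. Endothelial markers summed to 13900 to 17890 CPM in Pb and 14600 to 18260 CPM in Ctl Pericyte-like cells. The part of endothelial RNA in these Pericyte-like levels was not tested.

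Class II RNA was held by few cells. The 56 Perivascular macrophage-like cells, 1.08% of all, carried 65.9% of all H2-Aa UMIs, 61.1% of H2-Ab1, 65.7% of H2-Eb1 and 56.5% of Cd74. Summed over mice, they had 13600 CPM of Cd74 (Poisson interval 13200 to 14000), 4626 of H2-Ab1 (4400 to 4860), 4091 of H2-Aa (3880 to 4310) and 3436 of H2-Eb1 (3240 to 3640). The RNA was unevenly spread within the class: 23 cells had all 4 genes, 1 had 3, and 13 had none. The highest single cell held 470 Cd74 UMIs, and the median cell 5. Between the 24 cells with 3 or more class II genes and the other 32, marker levels also differed. The class II rich cells had 0 Lyve1 UMIs, against 131 CPM in the others, 54.9 against 380 CPM of Cd163, and 38.4 against 505 CPM of Folr2, 3 genes of resident border macrophages. Ccr2, a chemokine receptor of blood-derived monocytes, was at 71.4 CPM in the class II rich cells (13 UMIs) and 6.56 CPM in the others (1 UMI). Lyz2, Cd209a and Itgax, other monocyte or dendritic cell genes, did not lie that way by level. Lyz2 was at 8206 CPM in the class II rich cells and 10070 CPM in the others. Cd209a was at 93.3 and 131 CPM, though found in 16.7% and 12.5% of cells, and Itgax at 5.49 and 6.56 CPM (1 UMI each). Flt3 had 1 UMI (5.49 CPM) in the class II rich cells and 0 in the others. These cells were divided by the class II genes themselves, so this is a description with no test. The genes named in this comparison were picked after the data were seen.

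Cluster 18 held the other class II source, and it was of mixed kind. In 15 of its 43 cells the B cell markers were ahead of the T and NK cell markers. Those cells had 14910 CPM of Cd74, 4248 of H2-Aa, 3944 of H2-Ab1 and 2950 of H2-Eb1. In 27 cells the T or NK markers were ahead, and there Cd74 was at 54.3 CPM and H2-Aa at 15.5 CPM. Class I was high in the same 27 cells, with 2373 CPM of H2-K1, 3311 of H2-D1, 876 of H2-Q7 and 4545 of B2m. B cells are known professional antigen-presenting cells, and mouse T cells are known to make little class II.

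**Figure D2:**
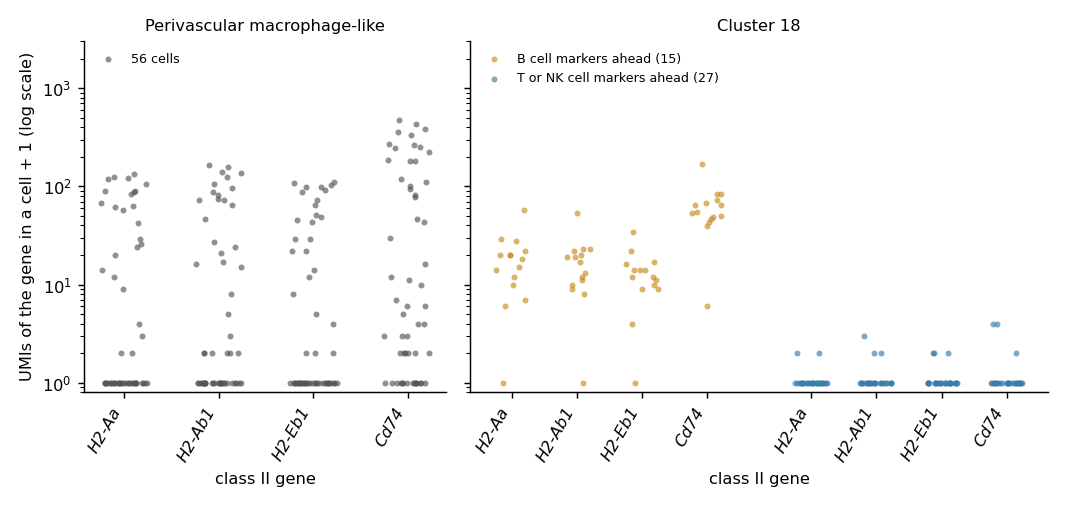
UMIs of each class II gene in each cell, plus 1, on a log scale, for the 56 Perivascular macrophage-like cells and for the 15 B cell and 27 T or NK cell marker cells of cluster 18. For H2-Aa, 20 of the 56 Perivascular macrophage-like cells have 10 or more UMIs and 31 are at 0. Cd74 is more graded, with 25 cells at 10 or more UMIs, 15 at 0 and the rest between. The B cell marker cells are nearly all positive and the T or NK marker cells nearly all at 0.

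Outside these 2 sources class II levels were lower, and Cd74 varied. It was at 92.1 CPM (Poisson interval 64.2 to 128) in the 44 Fibroblast-like cells summed over mice and averaged 108 ± 66.0 CPM in cluster 9 (n = 7). It averaged 27.1 to 36.0 CPM in 8 classes from Cajal-Retzius-like to Choroid plexus-like, cell types that should lack it. These levels moved with the mouse: in Oligodendrocyte-like cells Cd74 was at 49.3, 17.2, 50.4 and 7.98 CPM in Pb F1, F2, M1 and M2, and at 5.84, 39.7, 29.4 and 43.1 CPM in Ctl F1, F2, M1 and M2. The lowest values, in Pb M2 and Ctl F1, belong to the mice with 0 Perivascular macrophage-like cells. With the UMIs of all mice pooled, Cd74 made up 52.6% of the class II UMIs in Oligodendrocyte-like cells (95% Wilson interval 48.7 to 56.4). This was close to its 52.8% in Perivascular macrophage-like cells (51.7 to 53.9). By mouse the oligodendrocyte share ran from 42.9% (Ctl M1, 15 of 35 UMIs) to 68.4% (Pb M2, 13 of 19 UMIs). The part of RNA free in the suspension in these levels was not tested.

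Microglia-like cells stood apart in this respect. Their Cd74 averaged 169 ± 104 CPM (n = 8), against 30.4 ± 18.1 CPM in Oligodendrocyte-like cells (n = 8), and it was above it in 8 of 8 mice. Cd74 made up 73.4% of their class II UMIs pooled over mice (71.3 to 75.3), a share also seen in cluster 9 (72.3%, 63.6 to 79.5). By mouse the microglial share ran from 61.9% (Pb M1) to 92.1% (Ctl F1). H2-Ab1 averaged 29.2 ± 31.0 CPM in Microglia-like and 12.2 ± 9.17 CPM in Oligodendrocyte-like cells and was above in 8 of 8 mice, by under 10 CPM in 6 of them. H2-Eb1 averaged 18.4 ± 24.7 CPM in Microglia-like and 6.26 ± 4.48 CPM in Oligodendrocyte-like cells, above in 7 of 8 mice. H2-Aa averaged 13.2 ± 20.9 CPM in Microglia-like and 10.4 ± 8.97 CPM in Oligodendrocyte-like cells (n = 8 each), above in only 4 of 8 mice. Of the 1141 Microglia-like cells, 26 (2.28%) had 3 or more class II genes, and 514 had none.

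Across the 14 classes, the genes whose mean levels were most like H2-K1 were Psmb8 (Pearson r = 0.959), Psmb9 (0.947), Srgn (0.936), H2-T23 (0.920) and Stk24 (0.918), among 8449 genes that reached 50 CPM in some class. For Cd74 they were AI662270 (0.983), Wfdc17, Cd72 and Gpr65 (0.982 each) and Ptger4 (0.969). Within the family, H2-K1 correlated with H2-D1 at 0.938, H2-Q7 at 0.930, H2-Q6 at 0.886, B2m at 0.880 and Tap1 at 0.779, and with the class II genes at 0.683 to 0.747. Cd74 correlated with H2-Aa, H2-Ab1 and H2-Eb1 at 0.968 to 0.971. The 14 points share 8 libraries and differ in depth, and these values are descriptions.

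The study is about perinatal Pb and the hippocampus, and the 10 genes were compared between Pb and Ctl mice in all cells together, in 7 named classes and in cluster 9. For each mouse the UMIs of a class were added up, given 10 or more cells, and tested by edgeR's quasi-likelihood test with a term for sex and Benjamini-Hochberg adjustment over every gene of that fit. In none of the 9 fits did a gene pass the threshold of 0.05 after adjustment, which is 0.0% of the genes tested in each, members included. With no filter on low counts 3 member tests did pass, given below with their classes. Their fold changes hardly moved in that setting. Calls over all genes rose from 0 to 40 in Endothelial-like and from 0 to 53 in Microglia-like cells. By DESeq2, 19 genes passed in all cells, 1 in Endothelial-like, 1 in Oligodendrocyte-like cells and 3 in cluster 9, none of them a member, and by limma-voom 0 genes passed. The counts below are therefore of unadjusted p under 0.05, given beside the same share over all genes. The p-values set a difference between groups against the spread between these 8 mice. Pb was given to the dams, and the litter of each mouse is not known. Every mouse was treated as independent, so p-values for Pb would be too small where littermates resemble each other.

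Over all cells, Cd74 was at 271, 125, 361 and 50.1 CPM in Pb F1, F2, M1 and M2 and at 72.0, 216, 223 and 174 CPM in Ctl F1, F2, M1 and M2. The groups overlapped, and the 2 lowest mice, Pb M2 and Ctl F1, were those with 0 Perivascular macrophage-like cells, which numbered 17, 4, 21 and 0 in Pb and 0, 8, 4 and 2 in Ctl mice. The log2 fold change (Pb over Ctl) of Cd74 was 0.23 ± 0.543 (SE). In such a sum, fewer cells of a type and less RNA per cell cannot be told apart. Perivascular macrophage-like cells and cluster 18 together held 71.4, 68.8, 71.8 and 43.4% of the class II UMIs of the Pb mice and 61.5, 72.0, 77.6 and 79.2% of those of the Ctl mice. The 3 members with the smallest p in all cells were H2-Q6 (log2 fold change 0.47 ± 0.285), H2-Q7 (0.21 ± 0.257) and H2-D1 (0.12 ± 0.190). Of the 10 members, 0 had an unadjusted p under 0.05, against 4.99% of 12640 genes, and 0 had groups that did not overlap, against 3.45%.

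In Microglia-like cells, Cd74 differed most. It was at 240, 163, 395 and 126 CPM in Pb F1, F2, M1 and M2 and at 113, 120, 116 and 77.0 CPM in Ctl F1, F2, M1 and M2. Every Pb mouse was above every Ctl mouse, by a narrow gap between 126 CPM in Pb M2 and 120 CPM in Ctl F2, and the Pb mice were far more spread (231 ± 119 CPM) than the Ctl mice (106 ± 19.8 CPM, SD, n = 4 each). The log2 fold change was 1.14 ± 0.288 (SE, unadjusted p = 0.00111, rank 11 of 7580 genes), and the adjusted p of edgeR's quasi-likelihood test was 0.629. The exact two-sided permutation test on the CPM gave p = 0.0286, the smallest that 4 against 4 mice allow. Groups without overlap always give this value, so it adds nothing to the separation stated above. This test on CPM was run for Cd74 only and was not adjusted over members or classes. Among the 7580 genes, 2.81% had groups that did not overlap and 4.21% had an unadjusted p under 0.05, and among the 9 members tested Cd74 was the only 1 to do either. H2-Aa was too low to be tested there. H2-Eb1 had a log2 fold change of 1.04 ± 0.734 and H2-D1 of 0.24 ± 0.138. The 6 class I genes had log2 fold changes of 0.02 to 0.31 with a median of 0.11, against a median of -0.00081 over all genes.

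**Figure D3:**
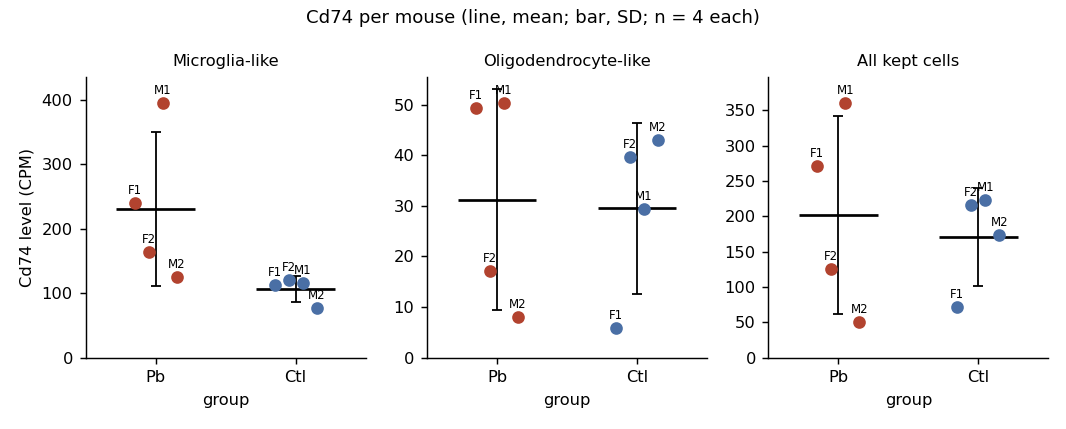
Cd74 level in CPM in each Pb and Ctl mouse in Microglia-like cells, Oligodendrocyte-like cells and all kept cells, with the mean (line) and SD (bar) of 4 mice. The Pb microglia lie between 126 and 395 CPM, all above the Ctl microglia at 77.0 to 120 CPM, while the groups overlap in the other 2 panels.

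The Cd74 difference in Microglia-like cells rested in part on few cells. In Pb M1, 1 cell held 175 of the 433 Cd74 UMIs (40.4%), and the highest count in any microglial cell of that mouse was 52 UMIs for H2-Aa, 60 for H2-Ab1 and 59 for H2-Eb1. Without the cell of highest count in each mouse, Cd74 was at 227, 105, 236 and 118 CPM in Pb F1, F2, M1 and M2 and at 83.7, 108, 94.0 and 68.8 CPM in Ctl F1, F2, M1 and M2, and the groups then overlapped. Without Pb M1 the log2 fold change was 0.67, against 1.14 with all mice. In Oligodendrocyte-like cells, which should lack the gene, Cd74 averaged 31.2 ± 21.8 CPM in Pb and 29.5 ± 16.8 CPM in Ctl mice (exact permutation p = 0.943, n = 4 each). Within the Pb mice the order of the mice was the same in both classes (M1, F1, F2, M2). The Ctl mice ran, from high to low, F2, M1, F1, M2 in Microglia-like and M2, F2, M1, F1 in Oligodendrocyte-like cells. The part of free RNA in the microglial difference was not tested. With the oligodendrocyte value of the same mouse subtracted, microglial Cd74 averaged 200 ± 101 CPM in Pb and 76.8 ± 30.8 CPM in Ctl mice, again without overlap. The 10 listed markers of perivascular macrophages summed to 124 to 173 CPM in Pb and 96.6 to 173 CPM in Ctl microglia, with 6 of 10 higher on average in Pb and none at 0. Without microglia holding 2 or more UMIs of that list, the log2 fold change was 0.79 (edgeR adjusted p = 0.871). Over all alternatives the adjusted p ran from 1.5e-08, with no filter on low counts, to 1.0. In that unfiltered setting the log2 fold change was 1.19, so the low adjusted p does not reflect a much larger difference. Why it fell was not tested.

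The share of microglia with a Cd74 UMI was compared after thinning each cell to 2000 UMIs. Before thinning it was 59.3, 41.0, 48.4 and 36.3% in Pb F1, F2, M1 and M2 and 25.5, 41.3, 35.8 and 31.1% in Ctl F1, F2, M1 and M2, with overlapping groups. After thinning the groups overlapped too (24.9 ± 7.20% in Pb, 16.1 ± 5.34% in Ctl, exact permutation p = 0.143, adjusted p = 0.959 over 80 shares, n = 4 each). In Oligodendrocyte-like cells, which should lack the gene, the thinned share was 6.18 ± 5.22% in Pb and 7.11 ± 3.54% in Ctl mice. Thinning left out 13 Pb and 10 Ctl Microglia-like cells with fewer UMIs, of 84 Pb and 42 Ctl cells over all classes. Among the 80 shares the smallest exact permutation p was 0.0286 (adjusted p = 0.762), reached by H2-Q7 in Pericyte-like cells, H2-Q6 in Smooth muscle-like cells and B2m in cluster 9. H2-Q7 in Pericyte-like cells was at 6.43 ± 2.16% in Pb and 0.781 ± 1.56% in Ctl mice at 2000 UMIs and at 4.98 ± 6.36% and 2.40 ± 3.01% at 1500 UMIs. H2-Q6 in Smooth muscle-like cells was at 0% in all 4 Pb mice and 11.3 ± 1.79% in 3 Ctl mice at 2000 UMIs, and at 1.79 ± 3.57% in Pb and 1.75 ± 3.04% in Ctl mice at 1500 UMIs. B2m in cluster 9 was at 94.6 ± 3.10% in 4 Pb mice and 100% in all 3 Ctl mice at 2000 UMIs.

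In Endothelial-like cells the Qa-2 genes differed most. H2-Q7 was at 48.3, 128, 36.0 and 31.3 CPM in Pb F1, F2, M1 and M2 and at 54.6, 40.8, 15.2 and 15.3 CPM in Ctl F1, F2, M1 and M2. Pb F2 was the highest of all, and the groups overlapped. The log2 fold change was 0.98 ± 0.291 (unadjusted p = 0.00411, adjusted p = 1.0 by edgeR's quasi-likelihood test). H2-Q6 was at 28.8, 60.7, 19.8 and 8.27 CPM in Pb F1, F2, M1 and M2 and at 17.6, 15.7, 9.32 and 10.7 CPM in Ctl F1, F2, M1 and M2, with a log2 fold change of 1.11 ± 0.349 (unadjusted p = 0.00586, adjusted p = 1.0 by edgeR). B2m was at 2280, 2924, 2159 and 2017 CPM in the Pb and 2082, 2385, 1738 and 1544 CPM in the Ctl mice in the same order, a log2 fold change of 0.27 ± 0.110. Without Pb F2 the log2 fold changes were 0.55 for H2-Q7 and 0.71 for H2-Q6. So 3 of the 9 members tested had an unadjusted p under 0.05, against 4.47% of 8756 genes, and 0 had groups that did not overlap, against 2.58%. With no filter on low counts, H2-Q7 and H2-Q6 passed (log2 fold changes of 1.00 and 1.13, edgeR adjusted p = 0.0026 and 0.0321), as did Cd74 in Microglia-like cells (1.19, adjusted p = 1.5e-08).

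In Pericyte-like cells H2-K1 was at 498, 656, 372 and 359 CPM in Pb F1, F2, M1 and M2 and at 339, 479, 352 and 267 CPM in Ctl F1, F2, M1 and M2, with overlapping groups and a log2 fold change of 0.33 ± 0.159. H2-D1 (0.25 ± 0.138) and B2m (0.21 ± 0.141) lay the same way. Of 4 members tested there, 0 had an unadjusted p under 0.05, against 4.24% of 5592 genes, and 0 had groups apart, against 2.66%. In Oligodendrocyte-like cells B2m (-0.21 ± 0.170), H2-D1 (-0.19 ± 0.214) and H2-Aa (-0.62 ± 0.710) had negative estimates, and 0 of 5 members had a p under 0.05, against 4.2% of 7614 genes, or groups apart, against 2.92%. In Smooth muscle-like cells H2-D1 (0.28 ± 0.174), H2-Q7 (0.44 ± 0.486) and B2m (0.15 ± 0.168) had 0 of 4 members under 0.05, against 4.27% of 4702 genes. In Astrocyte-like cells H2-K1 (0.46 ± 0.308), H2-D1 (0.23 ± 0.283) and B2m (0.14 ± 0.244) had 0 of 3, against 5.91% of 2285 genes. In Cajal-Retzius-like cells H2-D1 (0.34 ± 0.289), H2-K1 (-0.20 ± 0.387) and B2m (-0.04 ± 0.312) had 0 of 3, against 2.0% of 1648 genes. In cluster 9 Cd74 (0.46 ± 0.507), H2-K1 (-0.25 ± 0.304) and B2m (0.01 ± 0.194) had 0 of 4, against 5.75% of 1651 genes. The values in brackets are log2 fold changes of Pb over Ctl with their SE.

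**Figure D4:**
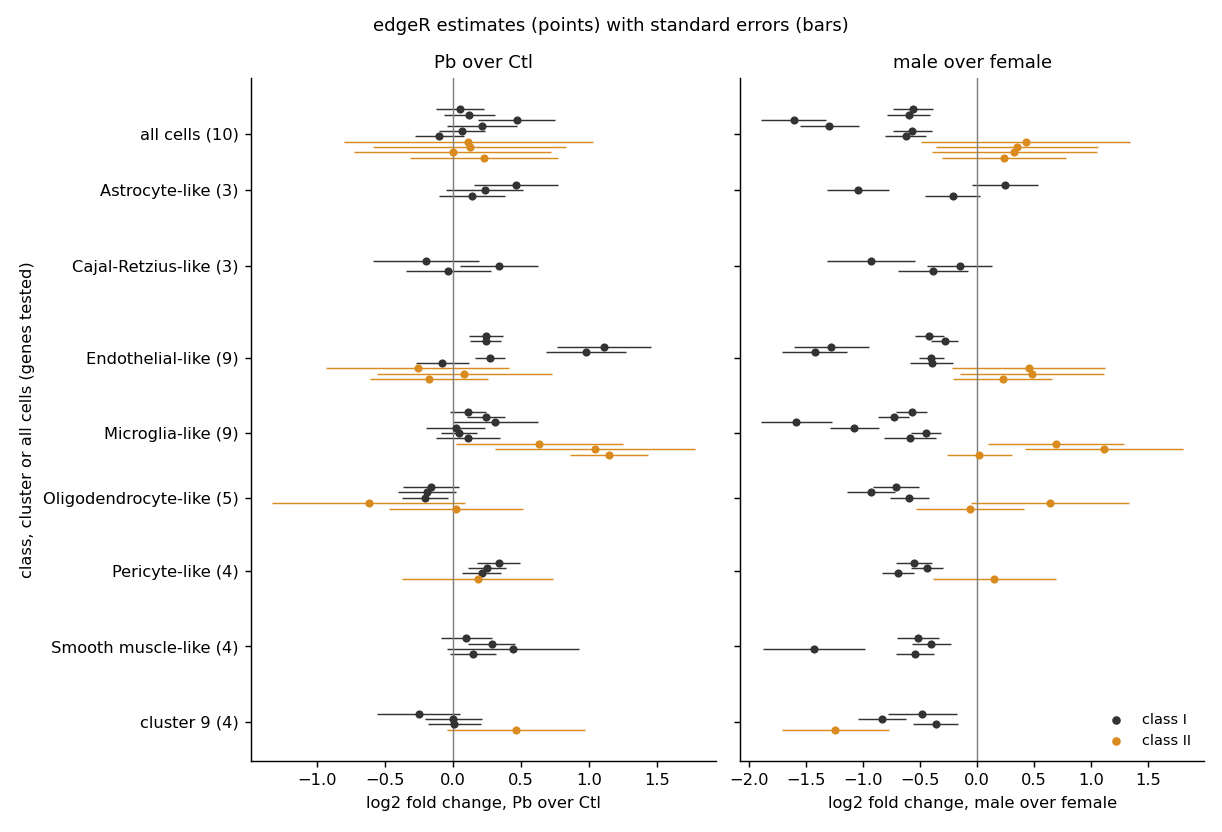
Log2 fold changes from edgeR (points) with standard errors (bars) for every member tested in each class, cluster or all cells, for Pb over Ctl on the left and male over female on the right. The class I points lie on both sides of 0 for Pb, but for sex all but 1 (H2-K1 in Astrocyte-like cells, 0.25) lie below 0.

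The design holds both sexes, and sex was a term of every fit. The class I estimates were below 0 for males over females in nearly every fit, though no member passed the adjusted threshold of edgeR. In Microglia-like cells H2-D1 was at 1334, 1169, 1133 and 905 CPM in males (Pb M1, Pb M2, Ctl M1, Ctl M2) and at 1679, 2137, 1793 and 1586 CPM in females (Pb F1, Pb F2, Ctl F1, Ctl F2). All males were below all females, and the log2 fold change (male over female) was -0.73 ± 0.139 (unadjusted p = 8.01e-05, edgeR adjusted p = 0.117). H2-Q6 lay between 13.8 and 47.5 CPM in males and between 61.0 and 108 CPM in females, a log2 fold change of -1.58 ± 0.310. H2-Q7 averaged 54.9 ± 15.4 CPM in males and 120 ± 24.9 CPM in females (-1.08 ± 0.213), and H2-K1 604 ± 66.1 CPM in males and 860 ± 99.6 CPM in females (-0.57 ± 0.135, SD over 4 mice each). B2m averaged 2888 ± 330 CPM in males and 3764 ± 370 CPM in females, and Tap1 lay between 28.9 and 35.6 CPM in males and between 35.8 and 61.3 CPM in females.

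Among the 9 members tested in Microglia-like cells, 6 had an unadjusted p under 0.05, all 6 of class I and all lower in males, against 4.35% of 7580 genes. In 5 of them (H2-K1, H2-D1, H2-Q6, H2-Q7 and Tap1) the sexes did not overlap, against 3.35% of genes, and 0 passed the adjusted threshold, against 0.0528%. The class II genes did not share this: Cd74 had a log2 fold change of 0.02 ± 0.284, H2-Ab1 of 0.69 ± 0.596 and H2-Eb1 of 1.12 ± 0.694. Cluster 4, the class I rich cluster, took 52.2, 30.2, 40.7 and 24.6% of the microglia of the males and 45.4, 69.5, 58.8 and 58.7% of those of the females in the order above. The sexes overlapped in this share, with Pb M1 above Pb F1, and its part in the sex difference was not tested. Within cluster 4 H2-D1 averaged 1455 ± 169 CPM in males and 1999 ± 313 CPM in females (n = 4 each), and within cluster 5 956 ± 203 CPM in males and 1490 ± 65.9 CPM in females (n = 4 each). Within cluster 8 it averaged 710 ± 59.0 CPM in 4 males and 1258 ± 125 CPM in 3 females, and in all 3 clusters the sexes did not overlap. H2-D1 was the only class I gene for which this held in every cluster. The sexes overlapped for H2-K1, H2-Q7 and B2m in cluster 5, for H2-Q6 in cluster 8 and for Tap1 in all 3 clusters, with the male mean below the female mean in each case.

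**Figure D5:**
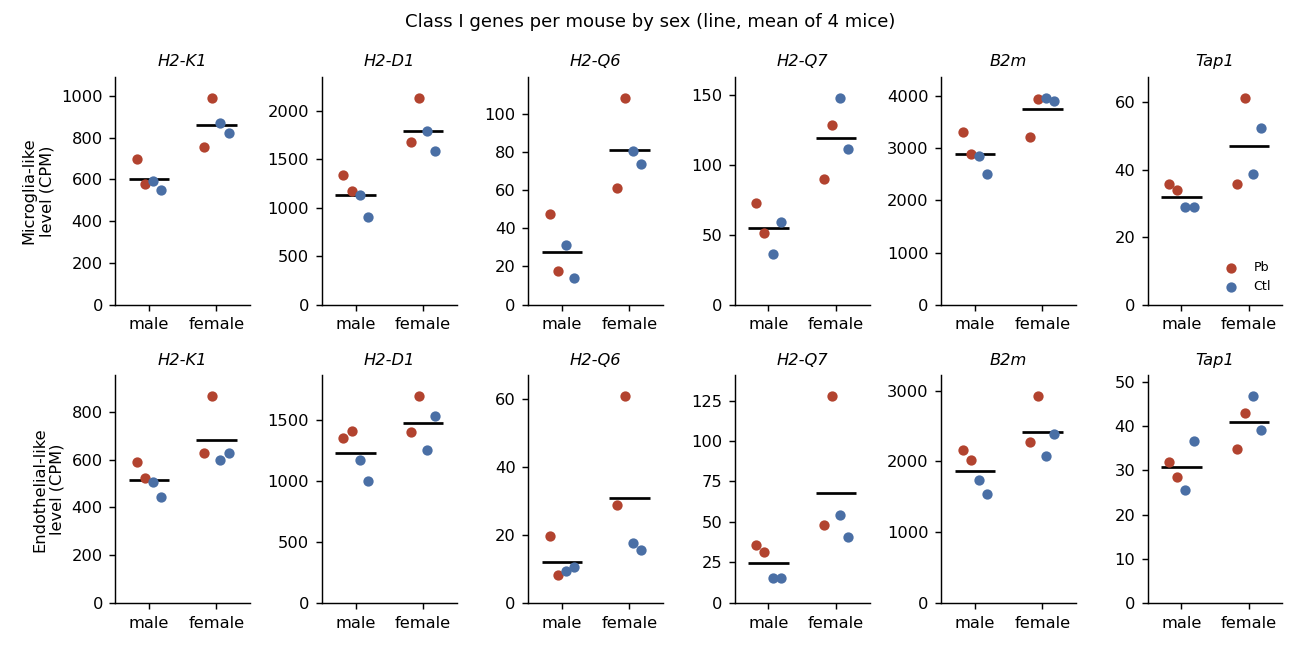
Level in CPM of the 6 class I genes in each male and female mouse in Microglia-like (top) and Endothelial-like cells (bottom), colored by exposure, with the mean of 4 mice as a line. In microglia all males lie below all females for 5 of 6 genes, B2m being the exception, and in endothelium for H2-K1 and H2-Q7.

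Estimates in the other classes lay the same way, apart from H2-K1 in Astrocyte-like cells. In Endothelial-like cells H2-Q7 was at 36.0, 31.3, 15.2 and 15.3 CPM in Pb M1, Pb M2, Ctl M1 and Ctl M2 and at 48.3, 128, 54.6 and 40.8 CPM in Pb F1, Pb F2, Ctl F1 and Ctl F2, with no overlap (log2 fold change -1.42 ± 0.284, edgeR adjusted p = 0.0975). There 5 of 9 members had an unadjusted p under 0.05, against 4.37% of 8756 genes, 2 had sexes apart (H2-K1 and H2-Q7), against 2.81%, and 0 passed the adjusted threshold, against 0.103%. In Pericyte-like cells B2m was at 1248, 1236, 1211 and 954 CPM in the 4 males and at 1735, 2291, 1566 and 1835 CPM in the 4 females in the same order, again apart (-0.69 ± 0.141, edgeR adjusted p = 0.0963). There 3 of 4 members had an unadjusted p under 0.05, against 5.53% of 5592 genes, 1 had sexes apart, against 3.33%, and 0 passed, against 0.107%. In Oligodendrocyte-like cells H2-D1 averaged 221 ± 83.0 CPM in males and 415 ± 78.4 CPM in females (-0.93 ± 0.214, n = 4 each). There 3 of 5 members had an unadjusted p under 0.05, against 3.8% of 7614 genes, 0 had sexes apart, against 2.56%, and 0 passed, against 0.0525%.

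In Smooth muscle-like cells B2m averaged 1436 ± 180 CPM in 4 males and 2117 ± 442 CPM in 3 females (-0.54 ± 0.167). All 4 members tested there had an unadjusted p under 0.05, against 7.59% of 4702 genes, and 0 passed, against 0.0638%. In cluster 9 H2-D1 had a log2 fold change of -0.83 ± 0.212, and 2 of 4 members (H2-D1 and Cd74, -1.24 ± 0.472) had an unadjusted p under 0.05, against 7.27% of 1651 genes, with 0 passing, against 0.0606%. In Astrocyte-like cells it was H2-D1 (-1.04 ± 0.271), 1 of 3 members, against 6.74% of 2285 genes, with 0 passing, against 0.219%. In Cajal-Retzius-like cells it was H2-K1 (-0.93 ± 0.384), 1 of 3 members, against 3.16% of 1648 genes, with 0 passing, against 0.0607%. In all cells together, H2-Q6 lay between 8.78 and 17.2 CPM in males and between 25.5 and 56.6 CPM in females (log2 fold change -1.61 ± 0.287, 4 mice each). There 6 of 10 members, the 6 of class I, had an unadjusted p under 0.05, against 2.63% of 12640 genes. Of these, 5 had sexes apart (all but H2-K1), against 1.84%, and 0 passed, against 0.0396%.

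The fits share mice and are not independent. By DESeq2 the adjusted threshold was passed by H2-Q6 and H2-Q7 in all cells, H2-Q7 in Endothelial-like, H2-D1, H2-Q6 and H2-Q7 in Microglia-like and B2m in Pericyte-like cells. By limma-voom it was passed by B2m in Pericyte-like cells. Leaving out Pb F1 let H2-D1, H2-Q6 and H2-Q7 pass in Microglia-like cells and H2-Q7 in Endothelial-like and in all cells by edgeR, and leaving out Pb M1 let H2-Q6 pass in Microglia-like cells.

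Whether the sexes responded to Pb differently was tested as an interaction in 5 fits. No gene passed the adjusted threshold of edgeR (0.0%), by DESeq2 4 genes did in all cells, none a member, and no member had an unadjusted p under 0.05. The shares over all genes were 2.81% in all cells, 3.22% in Endothelial-like, 3.21% in Microglia-like, 2.65% in Oligodendrocyte-like and 4.27% in Pericyte-like cells. The member with the smallest p was Tap1 in all cells (0.31 ± 0.371), H2-Q6 in Endothelial-like (-0.78 ± 0.734), H2-Ab1 in Microglia-like (1.53 ± 1.19), B2m in Oligodendrocyte-like (0.46 ± 0.335) and H2-K1 in Pericyte-like cells (-0.28 ± 0.324), as log2 fold change of Pb over Ctl in males minus that in females with its SE.

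Other genes of both pathways were compared as lists. Of 34 listed class I presentation genes 26 were in the table, and of 24 class II genes 19 were. None passed the adjusted threshold of edgeR for Pb in any of the 9 fits. Calr, the chaperone calreticulin that helps fold class I chains, averaged 417 ± 70.5 CPM in Pb and 313 ± 41.2 CPM in Ctl Oligodendrocyte-like cells (SD over 4 mice each), with a log2 fold change of 0.40 ± 0.111 (edgeR quasi-likelihood, unadjusted p = 0.00293). In Pericyte-like cells Calr averaged 394 ± 8.92 CPM in Pb and 298 ± 54.5 CPM in Ctl mice (0.37 ± 0.149), and calnexin, from Canx, 224 ± 27.4 CPM in Pb and 174 ± 13.7 CPM in Ctl mice (0.35 ± 0.150). In Endothelial-like cells Calr averaged 346 ± 32.5 CPM in Pb and 279 ± 37.5 CPM in Ctl mice (0.31 ± 0.135). In Smooth muscle-like cells Psme1, a proteasome activator subunit, averaged 134 ± 27.5 CPM in 4 Pb and 182 ± 45.8 CPM in 3 Ctl mice (-0.54 ± 0.217, unadjusted p = 0.0223 by edgeR). Estimates of class I pathway genes were above 0 for 11 of 24 genes in all cells (median -0.03, against -0.02 over all genes), 17 of 20 in Endothelial-like cells (median 0.08, against -0.0018) and 10 of 13 in Oligodendrocyte-like cells. Smooth muscle-like cells had 10 of 16 above 0, as did Pericyte-like cells, cluster 9 had 6 of 9, Astrocyte-like cells 5 of 5 and Cajal-Retzius-like cells 2 of 4. In Microglia-like cells 16 of 20 were above 0 (median 0.07), none with an unadjusted p under 0.05. The smallest p there belonged to Calr (0.25 ± 0.133) and Psme2 (-0.21 ± 0.147). Of class II pathway genes 7 of 16 were above 0 there (median -0.02), with Rfxank at 0.38 ± 0.300 and Nfyb at -0.31 ± 0.296. Class II counts above 0 were 9 of 19 in all cells, 6 of 10 in Endothelial-like and 6 of 9 in Oligodendrocyte-like cells. They were 2 of 8 in Pericyte-like cells, 1 of 4 in Smooth muscle-like cells and 0 of 6 in cluster 9. Astrocyte-like cells had 1 of 3 and Cajal-Retzius-like cells 2 of 3. Over all genes, 45.6 to 51.1% were above 0 in the 9 fits. Genes of a list share mice and are not independent. In all cells the smallest p belonged to Mr1 (-0.84 ± 0.408) and Irf1 (-0.22 ± 0.117) for class I, and to H2-DMb2, a chain of the class II peptide editor (-0.93 ± 0.341, unadjusted p = 0.0227 by edgeR), and March1 (0.32 ± 0.204) for class II.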

How the data were processed

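The deposited files hold whole UMI counts of each gene in each cell for 8 hippocampal libraries, 1 per mouse. Per the submitters' processing notes, Cell Ranger and Seurat were used with genome build mm10, with no version named. From these counts, cells with under 200 genes or over 20% mitochondrial counts were left out, and doublets called by Scrublet per mouse (33 of 5258 cells, 0.628%, at an expected rate of 0.02) were removed. Cells were clustered in scanpy 1.11.5 (2000 variable genes without sex-linked, mitochondrial, member and pathway genes, 30 principal components, 15 neighbours, Leiden resolution 1.0, no integration). Clusters were named from marker lists. The naming thresholds were set after the data were seen: 3 markers in 10% of cells and a lead of 0.5 on the log2 scale.

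UMIs were summed per mouse and class, where a mouse had at least 10 cells, and tested with edgeR 4.0.16 (quasi-likelihood, TMM, low-count filter, sex and group as terms, Benjamini-Hochberg adjustment, R 4.3.3). DESeq2 1.42.0 and limma 3.58.1 (voom) were alternatives. Scripts were tested on simulated data. Shares of cells with a UMI were compared after thinning to 2000 UMIs per cell by exact two-sided permutation (scipy 1.17.1), where 4 against 4 mice can go no lower than p = 0.0286. CPM values are UMIs scaled to the summed UMIs of the same cells. A mean ± SD is over mice, and intervals (95% Wilson, exact Poisson) cover counting error only. The members and the lists were chosen with earlier results of these data known. In each fit the members past the adjusted threshold were named, or else the 3 of smallest p, and for sex and the interaction the member of smallest p; other members stand as counts, or were added where a comparison turned on them. Pathway genes were named from the pair of smallest p in a fit, and 1 of them is not reported here. The alternatives were other scaling, no filter on low counts, no sex term, a replicate block, each mouse left out, doublets kept, a mitochondrial limit of 10%, Leiden resolution 0.5, member and pathway genes among the variable genes, at least 20 cells per mouse and thinning to 1500 UMIs. Without shared barcodes, without cluster 15 and without macrophage-marked microglia were alternatives chosen after seeing the data.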

Additional observations from a re-analysis of the deposited data

Results flagged for a closer look

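In 36 groups of 4 mice, 3 held a mouse set apart from the other 3 by Dixon's criterion, which chance alone gives in about 1 of 20 groups. Cd74 in Microglia-like cells was at 77.0 CPM in Ctl M2, against 112.7 to 119.9 CPM in the other 3 Ctl mice. H2-Q7 in Smooth muscle-like cells was at 137.8 CPM in Pb F2, against 26.14 to 40.05 CPM in the other 3 Pb mice. Cd74 in cluster 9 was at 227.4 CPM in Pb F1, against 76.81 to 94.06 CPM in the other 3 Pb mice.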

How the results depend on the processing

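Of 710 alternative values of 41 fold changes, 675 kept their direction and side of the threshold, 14 passed it newly and 21 reversed. For Pb, DESeq2 called 19 genes in all cells, 1 in Endothelial-like, 1 in Oligodendrocyte-like cells and 3 in cluster 9. With no low-count filter, which tests more genes, the calls were 5 in Astrocyte-like, 1 in Cajal-Retzius-like, 40 in Endothelial-like (2 members, H2-Q6 and H2-Q7), 53 in Microglia-like (1 member, Cd74), 25 in Oligodendrocyte-like, 20 in Smooth muscle-like, 16 in Pericyte-like cells and 44 in cluster 9. Leaving out 1 mouse gave 0 to 28 genes in cluster 9, 0 to 11 in Astrocyte-like, 0 to 7 in Microglia-like, 0 to 5 in Smooth muscle-like, 0 to 3 in Oligodendrocyte-like, 0 to 2 in Endothelial-like and 0 to 1 in Pericyte-like cells. Replicate numbers did not pair the mice (correlations of same-numbered mice -0.597, -0.199, 0.128 and -0.273); the replicate block gave 1 gene in Smooth muscle-like cells and 1.01 for microglial Cd74. Cd74 in microglia ranged from 0.665 (without Pb M1) to 1.35 with 1 mouse left out, and was 0.825 with presentation genes among the variable genes. Members called for sex were 2 in all cells, 1 in Endothelial-like, 3 in Microglia-like and 1 in Pericyte-like cells by DESeq2, 1 in Pericyte-like by limma-voom, and 3 in Endothelial-like, 4 in Microglia-like, 3 in Oligodendrocyte-like and 1 in Pericyte-like cells with no filter. With presentation genes among the variable genes 1 was called in Microglia-like cells, and with 1 mouse left out 0 to 1 in all cells, 0 to 1 in Endothelial-like and 0 to 3 in Microglia-like cells. Signs turned, on the log2 scale, for H2-D1 in Astrocyte-like (-0.191), H2-K1 (0.0778) and B2m (0.0431) in Cajal-Retzius-like cells and B2m in cluster 9 (-0.0336) with no sex term, B2m in Cajal-Retzius-like cells with no filter (0.0716), B2m in cluster 9 by DESeq2 (-0.0168) and H2-Eb1 in Microglia-like cells by limma-voom (-0.0146). With 1 mouse left out, values spanned 0 for H2-Q7 (-0.0331 to 0.451) and H2-D1 (-0.0335 to 0.278) in all cells, H2-D1 (-0.00566 to 0.723) and B2m (-0.113 to 0.454) in Astrocyte-like, H2-K1 (-0.447 to 0.128) and B2m (-0.692 to 0.642) in Cajal-Retzius-like and H2-D1 (-0.399 to 0.0515) in Oligodendrocyte-like cells, and B2m in cluster 9 (-0.0596 to 0.113). The same held for the interactions of Tap1 in all cells (-0.0101 to 0.671) and H2-Ab1 in Microglia-like cells (-1.3 to 2.38). Thinned shares, in percentage points of Pb minus Ctl, ranged from -0.0473 to 2.75 for H2-Ab1 in Microglia-like and from -1.93 to 3.76 for H2-Q7 in Endothelial-like cells, the second being -0.947 at 1500 UMIs. The causes were not tested.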
